A study of Mus musculus with 4 samples.

Results

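The microtubule regulators and motors that serve the cell outside mitosis were examined as 1 list of 46 genes. It holds structural microtubule-associated proteins (MAPs), plus-end and severing proteins, transport kinesins, dynein and dynactin, gamma-tubulin complex genes, tubulin cofactors and modifying enzymes, and spectraplakins. Members were matched to probes through the accession that the array files give for each probe, and the brightest probe over the 4 arrays stood for each gene. By that rule 44 of the 18952 named genes on the array were members. Clasp1 and Pafah1b1 were not analysed here, because no probe was matched to them. Map2 was not tested, because its probe was well above background on only 1 array of each group. Each of the other 43 members had a probe well above background on each of the 4 arrays.

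The arrays held total RNA from mammary glands of female mice aged 13 weeks, sampled before neoplasia. The groups were 2 arrays labelled STM KO, from mice lacking stathmin (knockout 1 and knockout 2), and 2 arrays labelled WT for stathmin (WT 1 and WT 2). All 4 samples carried the Δ16HER2 transgene, which encodes a HER2 variant with an exon missing. The promoter that drives it, the way stathmin was deleted and the number of animals per sample are not given in the sources used here. The comparison asks what stathmin loss does to expression in the transgenic gland.

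Microtubules are polymers of alpha- and beta-tubulin that grow from gamma-tubulin complexes, are stabilised and spaced by MAPs, and are cut or shortened by severing enzymes and some kinesins. Kinesins carry cargo mostly toward the plus end, and dynein with its activator dynactin carries it toward the minus end. Stathmin, encoded by Stmn1, binds tubulin dimers and favours depolymerisation. In the mammary gland, microtubules position organelles and move vesicles to the apical surface of secretory epithelium.

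A level is given as the log2 of a probe's signal over the 75th percentile of its array, and differences are log2 fold changes, knockout minus WT, with the standard error (SE) of a limma fit over all tested probes. With 2 arrays a group their number limits the precision, and p-values measure only the spread between these samples, which may be technical. For Stmn1, the gene named by the knockout label, the brighter probe read 4.56 and 3.34 on the knockout arrays, against 5.59 and 3.59 on the WT arrays. Its dimmer probe read -5.71 and -5.05 on the knockout arrays, against -1.13 and -3.39 on the WT arrays, without overlap. That probe was well above background on neither knockout array and on WT 1 alone, so it was not tested. The brighter probe gave -0.64 ± 0.76 (SE, adjusted p = 0.938) with overlapping groups. The probes' position relative to the deletion is unknown here, so the genotype could not be checked on this gene, and each array keeps the name its label gives. Luminal epithelial markers fixed as a list were well above background for 10 of 10 genes. Skeletal muscle markers (8 of 8), adipocyte markers (7 of 7) and T cell markers (7 of 8) were also found, so the samples held more than epithelium, although the labels give the histotype as epithelial. In such bulk tissue, fewer cells of a type and less RNA per cell cannot be told apart. The description of each sample names EOC cells instead of mammary gland and was not used. Knockout 2 stood apart: the T cell list (all but Cd4 detected) had a summed signal of 13.7 there, in units of the array's 75th percentile, against 0.69 to 0.76 on the other arrays, and the B cell list (6 of 8, without Pax5 and Blk) 25.7, against 0.63 to 0.84. Fibroblast markers (6 of 6) separated the groups, with summed signals of 246 and 255 on the knockout arrays, against 382 and 376 on the WT arrays, and their part in the results below was not tested. Both groups lay on 1 slide in blocks, so position on the slide cannot be told apart from genotype.

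No member passed an adjusted p of 0.05, as none of the 13235 named genes tested did (0% of them, smallest adjusted p over probes 0.932 in the limma fit). The members' log2 fold changes ran from -1.30 to 0.41 with a median of -0.07, against a median of -0.01 over all named genes. Fold changes were negative for 25 members and positive for 18. At an unadjusted p under 0.05 there were 2 members, Map7 and Ckap5, both lower, which is 4.65% of the members, against 3.54% of all named genes (2.4% lower and 1.14% higher). A log2 fold change of at least 1 in size was found for 2 members, Map7 and Dctn2, against 3.11% of all named genes. Both knockout arrays lay above both WT arrays for 9 members (20.9%, against 17.7% of all named genes) and below them for 11 (25.6%, against 17.8%). Scaling by the array median instead raised every fold change by the same amount, to a median of 0.19 over all named genes. It gave 9 members above both WT arrays, against 21.2% of all named genes under that scaling, and 2 below, against 7.07%. The fold change was under 0.25 in size for 29 of 43 members (67.4%, against 53.7% of all named genes). The median range over the 4 arrays was 0.43 for the members and 0.62 for all named genes. The named genes were not matched to the members in signal level, and the part of signal level in these differences was not tested.

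**Figure D1:**
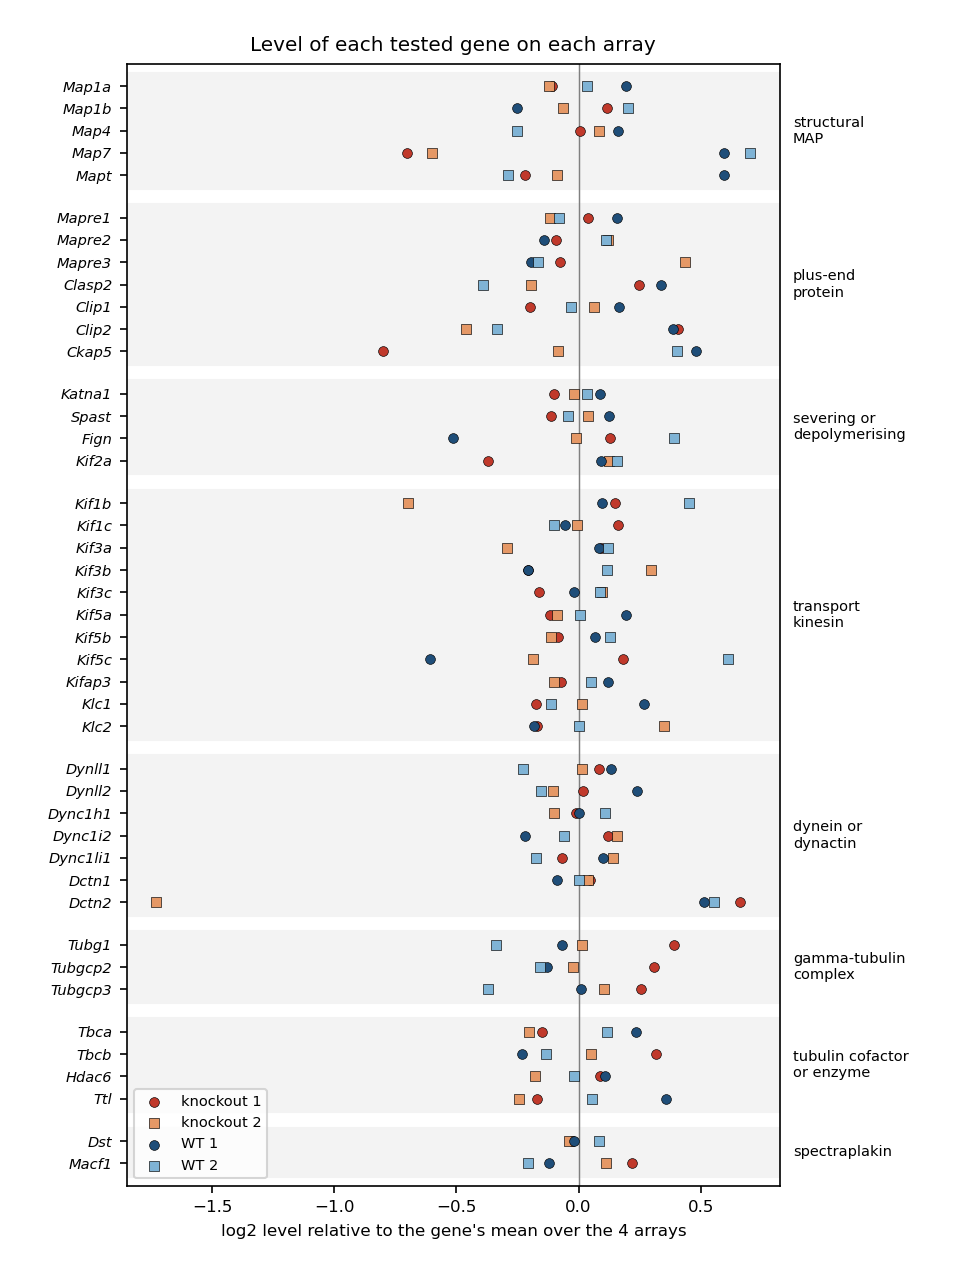
Each point is the log2 level of a tested gene on 1 array (knockout 1, knockout 2, WT 1, WT 2), relative to that gene's mean over the 4 arrays, with genes grouped by role down the page. Most genes lie within a narrow band around 0; Map7 is low on both knockout arrays, and Dctn2 is low on knockout 2 alone.

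Structural MAPs bind along the microtubule wall. Map7, also called ensconsin, which is enriched in epithelia and recruits kinesin-1 to microtubules, had the fold change of largest size among the tested members. Its brightest probe (NM_008635) read -1.34 and -1.24 on the knockout arrays, against -0.04 and 0.07 on the WT arrays. Both knockout arrays were low by much more than the arrays of either group differed, and the groups did not overlap. The log2 fold change was -1.30 ± 0.24 (SE, n = 2 per group), or 2.46-fold lower, with an unadjusted p of 0.00246 and an adjusted p of 0.935 in limma. Leaving out 1 array at a time kept it between -1.35 and -1.25, and another background correction (normexp) gave -0.85. A second Map7 probe read -3.66 and -3.95 on the knockout arrays, against -2.57 and -2.77 on the WT arrays, and also separated the groups (-1.13 ± 0.26, unadjusted p = 0.00641). That second probe was well above background on 1 knockout array and on both WT arrays, so it was tested only through the group where it was high. The third Map7 probe was well above background on 1 array of each group and was not tested.

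Luminal and milk gene levels differed between the arrays as well. The luminal list, 10 of 10 genes detected, lay at 0.19 on knockout 1 and -0.57 on knockout 2, against 0.17 on WT 1 and 0.21 on WT 2, relative to its mean over the arrays. Its summed signal, in the same unit as above, was 124 and 78.0 on the knockout arrays, against 102 and 139 on the WT arrays. The luminal genes had a median log2 fold change of -0.38, with 9 of 10 negative and 1 positive (10%, against 49.2% of all named genes). Both knockout arrays lay below both WT arrays for 2 of the 10 (20%, against 17.8% of all named genes). These were Esrp1 (-3.33 and -3.92 on the knockout arrays, against -2.56 and -3.22 on the WT arrays) and Krt8. For Krt8 the margin was very small, with 5.2508 on knockout 1 against 5.2515 on WT 1. Milk genes (7 of 7 detected) lay at -1.99 and -0.23 on the knockout arrays, against 1.94 and 0.29 on the WT arrays, with summed signals of 7.17 and 20.5 on the knockout arrays, against 170 and 42.6 on the WT arrays. The knockout 2 value rests on Glycam1, which read 3.801 there, against -6.56 on knockout 1, 0.53 on WT 1 and -4.75 on WT 2. Without Glycam1, a choice made after seeing the data, the milk list lay at -1.52 and -1.20 on the knockout arrays, against 1.88 and 0.84 on the WT arrays, with summed signals of 7.16 and 6.54 on the knockout arrays, against 169 and 42.6 on the WT arrays. The other 6 milk genes were thus lower on both knockout arrays than on both WT arrays, as were Map7 and 17.8% of all named genes. Wap among them was well above background on only 2 of the 4 arrays. It read -4.63 and -4.27 on the knockout arrays, against -1.74 and -2.99 on the WT arrays. The part of luminal and milk genes in the Map7 difference was not tested.

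The other structural MAPs differed less. Map4, the main MAP of non-neuronal cells, read 4.05 and 4.13 on the knockout arrays, against 4.21 and 3.79 on the WT arrays, with 0.09 ± 0.27 (SE) as the log2 fold change. The groups overlapped, and a dim Map4 probe for another transcript had a fold change of -0.51 ± 0.32. Map1a, Map1b and Mapt, best known from neurons, had fold changes of -0.23, 0.05 and -0.31. The brightest probe of Mapt, which encodes tau, read 1.01 on WT 1 and between 0.12 and 0.32 on the other arrays. Its other tested probes both gave a fold change of 0.07, and WT 1 was not the highest array on either. The second read 0.48 and 0.11 on the knockout arrays, against 0.45 and -0.00030 on the WT arrays. The third read -0.34 and 0.16 on the knockout arrays, against 0.11 and -0.42 on the WT arrays. Neuronal markers Snap25, Syt1, Nefl and Nefm were not well above background on any array, and the neuronal list (5 of 9 detected) had summed signals of 0.39 and 0.65 in the same unit on the knockout arrays, against 0.57 and 0.49 on the WT arrays. Map2 read -2.34 and -4.87 on the knockout arrays, against -1.07 and -3.26 on the WT arrays, and was well above background on knockout 1 and WT 1 alone, so no fold is given.

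Promoter sequence is shown for Map7 and Ckap5, the members past an unadjusted p of 0.05, and for Tubgcp3, from the role group that lay above WT in all its members. The windows run from 250 bases before to 50 after the annotated start, from RefSeq on GRCm38.p6, which had 36 of the 46 members. They are Map7 at chr10:20148670-20148969 on the plus strand, Ckap5 at chr2:91526512-91526811 on the plus strand and Tubgcp3 at chr8:12672051-12672350 on the minus strand. Capitals mark matches on either strand to 3 motifs. The first is GGGCGG, the GC box bound by Sp factors. Next comes CCAAT, which NF-Y binds. The last is CCGGAA, the core bound by ETS factors.
Map7: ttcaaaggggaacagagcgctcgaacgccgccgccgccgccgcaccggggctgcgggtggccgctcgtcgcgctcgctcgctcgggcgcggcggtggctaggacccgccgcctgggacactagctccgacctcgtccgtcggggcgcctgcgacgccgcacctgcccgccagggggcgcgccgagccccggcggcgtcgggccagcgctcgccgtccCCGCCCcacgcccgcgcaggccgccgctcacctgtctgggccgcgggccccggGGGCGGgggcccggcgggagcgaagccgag
Ckap5: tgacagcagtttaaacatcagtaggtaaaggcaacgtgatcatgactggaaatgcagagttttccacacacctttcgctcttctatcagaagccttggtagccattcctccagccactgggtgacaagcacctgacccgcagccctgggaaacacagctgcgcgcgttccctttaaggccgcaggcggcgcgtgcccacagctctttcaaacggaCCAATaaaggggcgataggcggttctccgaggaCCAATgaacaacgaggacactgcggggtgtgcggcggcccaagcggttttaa
Tubgcp3: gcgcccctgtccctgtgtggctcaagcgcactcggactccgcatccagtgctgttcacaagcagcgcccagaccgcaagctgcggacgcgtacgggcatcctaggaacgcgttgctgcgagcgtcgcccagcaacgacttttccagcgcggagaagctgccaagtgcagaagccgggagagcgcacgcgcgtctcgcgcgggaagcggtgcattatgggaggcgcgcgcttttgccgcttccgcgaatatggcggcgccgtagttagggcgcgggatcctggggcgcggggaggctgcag
Map7 held 2 GC boxes in a window of 81.7% G and C, Ckap5 held 2 CCAAT boxes, and Tubgcp3 held no match, so none of the 3 held more than 1 kind of motif. A GC box stood in 30 of the 45 promoters of the 36 members (66.7%), against 35.7% of all 32851 promoters of this length. CCAAT stood in 17 (37.8%, against 37.4%) and the ETS core in 3 (6.67%, against 14.9%). A match is a run of letters and was not measured as a binding site.

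Plus-end proteins ride on growing microtubule tips, and of these Ckap5, related to the frog microtubule polymerase XMAP215, had the largest difference. It read -3.99 and -3.27 on the knockout arrays, against -2.71 and -2.78 on the WT arrays. Knockout 1 was the lowest, and the groups did not overlap. The log2 fold change was -0.88 ± 0.32 (SE, n = 2 per group, unadjusted p = 0.0393, limma adjusted p = 0.935), or 1.84-fold lower. It was -0.52 without knockout 1, -1.24 without knockout 2 and -0.43 with normexp, and its unadjusted p ran from 0.00821 to 0.148 over the alternatives. A second probe gave -0.47 ± 0.28. Both probes were dim, with processed signals of 18.4 and 16.6 on the knockout arrays, against 29.3 and 21.0 on the WT arrays for the brighter one. The lowest level still well above background differed between arrays in the same order as Ckap5 on the knockout arrays: -4.79 and -4.30 there, against -4.21 and -3.78 on the WT arrays. The part of this floor in the result was not tested.

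The EB proteins track tips and recruit other tip proteins. Mapre3 (EB3) read 0.20 and 0.72 on the knockout arrays, against 0.09 and 0.12 on the WT arrays. Knockout 2 was the high array, so the fold change of 0.36 ± 0.28 (SE, adjusted p = 0.935) was 0.10 without it and 0.15 with normexp. Mapre1 (EB1) had -0.08 ± 0.25 and Mapre2 0.03 ± 0.26. The tip linkers Clip1 and Clip2 had -0.14 and -0.05, and Clasp2, which stabilises microtubules near the cell edge, had 0.05. Clip2 and Clasp2 differed more within the groups than between them. Clip2 read -0.64 and -1.51 on the knockout arrays, against -0.66 and -1.38 on the WT arrays, so the first array of each group was the higher. Proliferation markers (9 of 10 detected) had that order too, at 0.71 and -0.69 on the knockout arrays, against 1.04 and -1.06 on the WT arrays. Their summed signals were 23.2 and 8.82 on the knockout arrays, against 31.7 and 6.49 on the WT arrays, and their part was not tested.

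Severing and depolymerising proteins gave no separated difference beyond 0.25 on their brightest probes. The katanin subunit gene Katna1 and the spastin gene Spast had log2 fold changes of -0.12 and -0.08, and for Katna1 both knockout arrays lay below both WT arrays by a small margin that median scaling turned to 0.074. Fign, which encodes the severing enzyme fidgetin, read 0.34 and 0.20 on the knockout arrays, against -0.30 and 0.60 on the WT arrays. The WT arrays bracketed the knockout arrays, with a fold change of 0.12 ± 0.37 (SE), and a dimmer probe gave -0.44 ± 0.36. Kif2a, a kinesin that depolymerises microtubule ends, read -0.10 and 0.40 on the knockout arrays, against 0.37 and 0.43 on the WT arrays on its brightest probe (-0.25 ± 0.28). Its second probe read -1.29 and -2.26 on the knockout arrays, against -0.74 and -0.64 on the WT arrays, so that both knockout arrays were low there (-1.09 ± 0.38, unadjusted p = 0.0335, limma adjusted p = 0.935). The Kif2a probes thus disagree on the size of the difference.

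**Figure D2:**
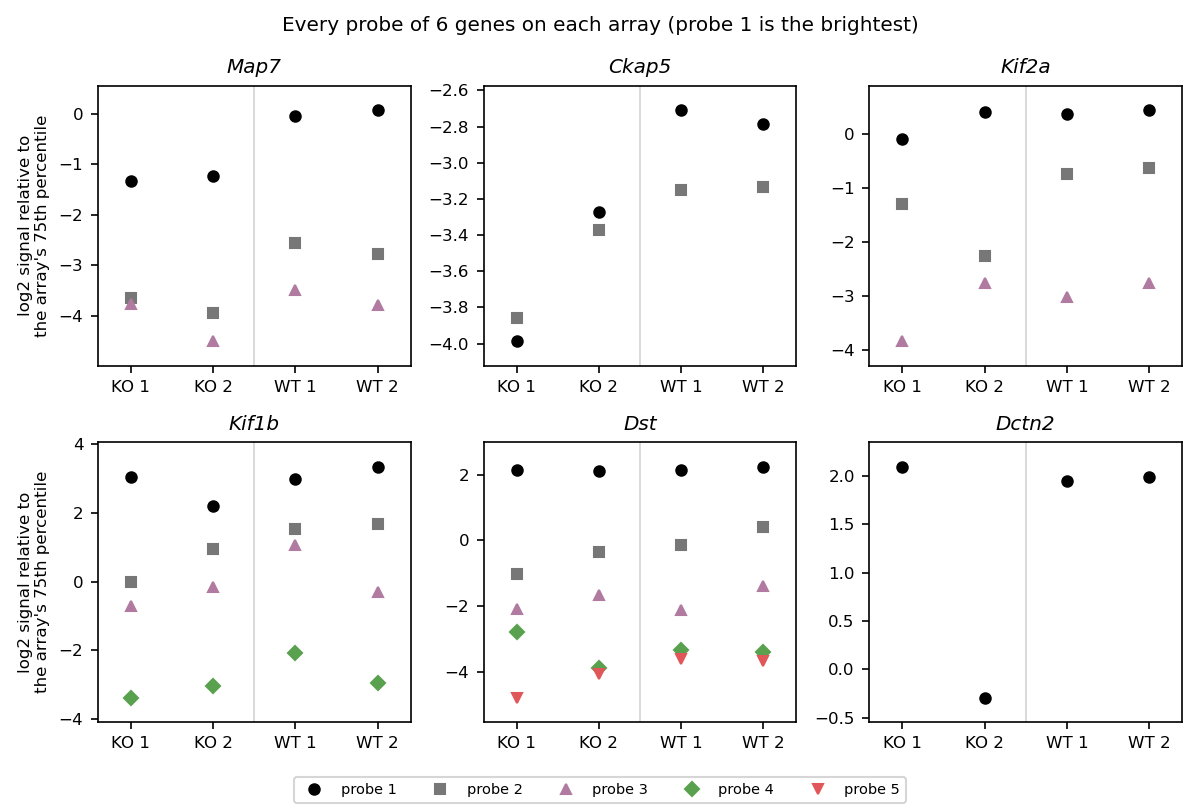
Each point is the log2 signal of 1 probe on 1 array, relative to that array's 75th percentile, for 6 genes, with probes numbered from the brightest. Probes 1 and 2 of Map7 and both of Ckap5 are low on both knockout arrays, those of Kif1b, Kif2a and Dst differ in their pattern, and Dctn2, with 1 probe, is low on knockout 2 (-0.29) alone.

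Of the 11 transport kinesin genes, all tested, 8 had negative and 3 positive fold changes, with a median of -0.16, although Kif3c, Kif5c, Kifap3 and Klc1 turned positive under median scaling. Kif1b, a motor for mitochondria and synaptic vesicle precursors, read 3.06 and 2.21 on the knockout arrays, against 3.002 and 3.36 on the WT arrays. Knockout 2 was the low array and the groups overlapped, with a log2 fold change of -0.55 ± 0.37 (SE, adjusted p = 0.935), which was -0.12 without knockout 2 and -0.83 with normexp. All 4 Kif1b probes had negative fold changes, and the second gave the largest, -1.14 ± 0.38 (unadjusted p = 0.0267). That probe read 0.00 and 0.94 on the knockout arrays, against 1.55 and 1.68 on the WT arrays, so there knockout 1 was the lowest and the groups did not overlap. The probes carry different transcript accessions, and under each accession 1 probe separated the groups.

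Kinesin-1, the motor that Map7 recruits, moves cargo with heavy chains from Kif5a, Kif5b and Kif5c and light chains from Klc1 and Klc2. Kif5b, the heavy chain used in most tissues, read 3.70 and 3.67 on the knockout arrays, against 3.86 and 3.92 on the WT arrays. Both knockout arrays lay lower, by -0.20 ± 0.24 (SE). Kif5a also lay lower without overlap, at -0.20, but median scaling brought both close to 0, at -0.0041 for Kif5b and -0.0081 for Kif5a, and normexp to -0.13 and -0.11. Kif5c varied most between the WT arrays: it read 0.78 and 0.41 on the knockout arrays, against -0.01 and 1.21 on the WT arrays (-0.0020 ± 0.46). Whether probes of these related genes cross-react was not tested. The light chain genes had -0.16 (Klc1) and 0.18 (Klc2), with overlapping groups. Kinesin-2, which drives transport in cilia, was close to level: Kif3a, Kif3b and Kif3c had -0.20, 0.09 and -0.07, and its adaptor Kifap3 had -0.17, separated on its brightest probe and with 0.12 and -0.05 on the others. Kif1c, which moves vesicles and messenger RNA, had 0.16.

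Dynein and dynactin genes had a median of 0.07 over the 7 tested. The light chain gene Dynll1 read 5.91 and 5.84 on the knockout arrays, against 5.96 and 5.60 on the WT arrays, with a log2 fold change of 0.09 ± 0.26 (SE). Its close relative Dynll2 read 4.24 and 4.11 on the knockout arrays, against 4.46 and 4.07 on the WT arrays (-0.09 ± 0.27). Both genes overlapped between the groups. The heavy chain gene Dync1h1, the motor subunit, read 4.16 and 4.06 on the knockout arrays, against 4.17 and 4.28 on the WT arrays. It lay only just lower on both, with a fold change of -0.11 ± 0.24 that was 0.082 under median scaling. The intermediate chain gene Dync1i2 read 4.56 and 4.60 on the knockout arrays, against 4.22 and 4.38 on the WT arrays. Both knockout arrays were the higher (0.28 ± 0.24, adjusted p = 0.935). The light intermediate chain gene Dync1li1 had 0.07.

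The dynactin genes Dctn1 and Dctn2 encode its p150 arm and the dynamitin subunit. Dctn1 had 0.09 ± 0.24 (SE) and the narrowest range of the dynein and dynactin genes, 0.14 over the 4 arrays. Dctn2 had the widest of all tested members, 2.39. It read 2.10 and -0.29 on the knockout arrays, against 1.95 and 1.99 on the WT arrays. Knockout 2 alone was low. Before scaling, its processed signal was 131, against 1249 on knockout 1, 739 on WT 1 and 574 on WT 2. After scaling, the ratio of knockout 1 to knockout 2 was 5.24. The fold change of -1.07 ± 0.77 (adjusted p = 0.935) turned to 0.13 without knockout 2. The spot carried no outlier flag, and Dctn2 has no second probe on the array to compare. Knockout 2 was also the array with the high T cell markers, and their part was not tested.

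Gamma-tubulin complexes nucleate microtubules, and all 3 members of that group were higher on both knockout arrays than on both WT arrays, as were 17.7% of all named genes. Tubg1, which encodes gamma-tubulin itself, read 2.31 and 1.93 on the knockout arrays, against 1.85 and 1.58 on the WT arrays. The groups did not overlap, with a log2 fold change of 0.41 ± 0.28 (SE, adjusted p = 0.935), or 1.32-fold higher. Tubgcp2, a core complex subunit gene, read -0.61 and -0.94 on the knockout arrays, against -1.05 and -1.08 on the WT arrays (0.29 ± 0.26). Its partner Tubgcp3, whose promoter is shown above, read 0.92 and 0.77 on the knockout arrays, against 0.67 and 0.29 on the WT arrays (0.36 ± 0.27). Knockout 1 was the highest array for each gene. The first array of each group was also the higher for all 3, as for the mean of the proliferation markers, whose part was not tested. The median of the 3 fold changes was 0.36 and stayed between 0.22 and 0.54 with 1 array left out, and none of the 3 turned negative under any setting run. None passed an unadjusted p of 0.05.

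The other 6 tested genes of gamma-tubulin complexes and their recruitment, from a fixed list of 7, had positive log2 fold changes, from 0.18 to 0.51 with a median of 0.21. Of all named genes 49.2% had positive fold changes. Both knockout arrays lay above both WT arrays for 2 of the 6, against 17.7% of all named genes. The scaffold gene Nedd1 had 0.51 ± 0.52 (SE) and read -1.42 and -2.15 on the knockout arrays, against -1.64 and -2.96 on the WT arrays, so the first array of each group was the higher. Tubgcp4 had 0.24 ± 0.32, through knockout 2. The fixed list (7 of 7 detected), relative to its mean over the arrays, lay at -0.08 and 0.20 on the knockout arrays. On the WT arrays it lay at 0.04 and -0.16. The 3 members lay at 0.32 and 0.03 on the knockout arrays, against -0.06 and -0.29 on the WT arrays. Knockout 2 was thus the highest array for the fixed list, and knockout 1 for the members. No test of these genes as a set was made.

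**Figure D3:**
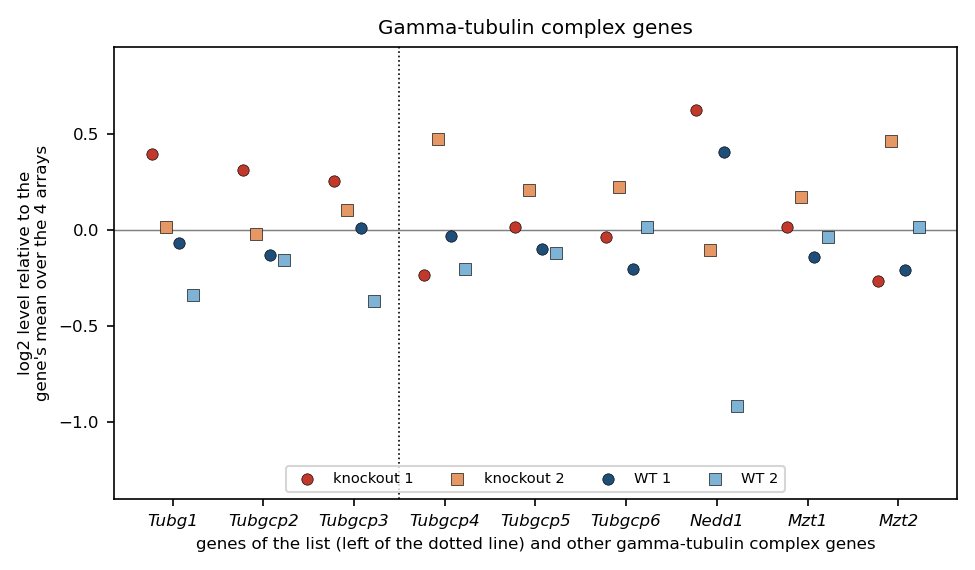
Each point is the log2 level of a gamma-tubulin complex gene on 1 array, relative to the gene's mean over the 4 arrays. For Tubg1, Tubgcp2 and Tubgcp3 both knockout arrays lie above both WT arrays; among the 6 other genes this holds for Tubgcp5 and Mzt1.

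Tubulin cofactors fold tubulin and build its dimers, and here 2 of them lay on opposite sides. Tbca, which takes up beta-tubulin, read 3.99 and 3.94 on the knockout arrays, against 4.38 and 4.26 on the WT arrays. Both knockout arrays were low (-0.35 ± 0.24, SE, adjusted p = 0.935), and the fold change was -0.16 under median scaling and -0.13 with normexp. Tbcb, which binds alpha-tubulin, read 4.43 and 4.16 on the knockout arrays, against 3.88 and 3.98 on the WT arrays, so both knockout arrays were high (0.36 ± 0.25, adjusted p = 0.935). Ttl, the ligase that adds tyrosine back to alpha-tubulin, read -1.47 and -1.55 on the knockout arrays, against -0.95 and -1.25 on the WT arrays. It was lower on both, by 1.33-fold (-0.41 ± 0.25). The tubulin deacetylase gene Hdac6 had -0.09 ± 0.25 with overlapping groups.

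Spectraplakins link microtubules to actin and to junctions. Macf1 read 1.91 and 1.81 on the knockout arrays, against 1.57 and 1.49 on the WT arrays. Both knockout arrays were higher (0.33 ± 0.24, SE, adjusted p = 0.935), although normexp brought the fold change to -0.00054. Dst, which encodes an epithelial form that anchors keratin at hemidesmosomes, had -0.07 ± 0.24 on its brightest probe (0.13 under median scaling), with levels of 2.14 and 2.13 on the knockout arrays, against 2.15 and 2.25 on the WT arrays. Its 5 probes disagreed. The second, under another accession, read -1.03 and -0.36 on the knockout arrays, against -0.15 and 0.41 on the WT arrays, lower without overlap (-0.82 ± 0.36, unadjusted p = 0.0671). The fifth, close to background, gave -0.79 ± 0.33, and the others -0.12 and 0.04.

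**Figure D4:**
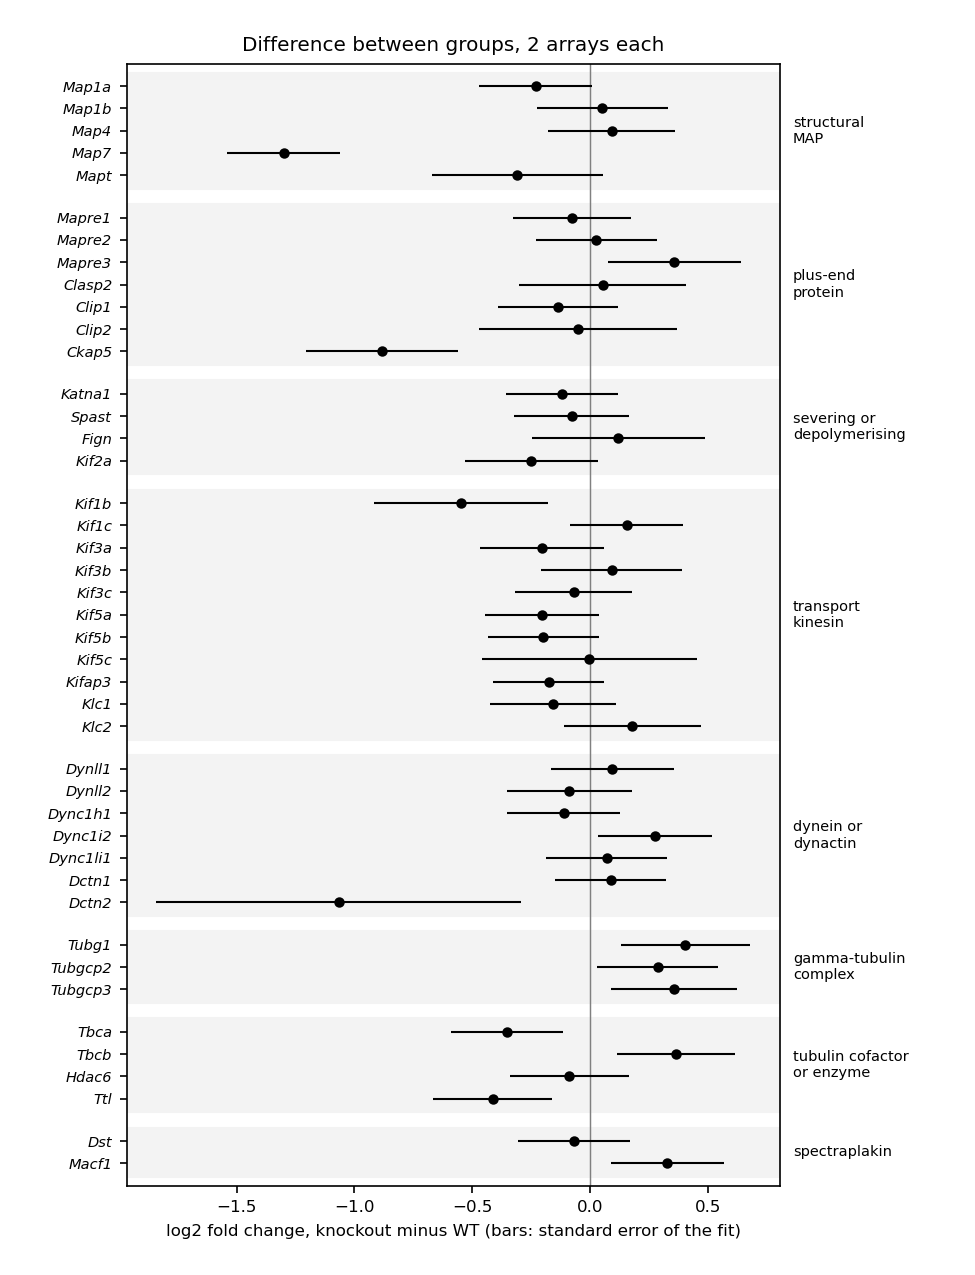
Points are log2 fold changes, knockout minus WT, of the 43 tested genes by role, and bars are the standard error of the limma fit with 2 arrays per group. Map7 (-1.30), Dctn2 (-1.07) and Ckap5 (-0.88) lie farthest to the left, and the 3 gamma-tubulin complex genes all lie to the right of 0.

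Across members, 22 genes had more than 1 tested probe, and for 11 of these all tested probes had fold changes of 1 sign. The same share was not computed over all named genes, so it cannot be said whether this is many or few. A second tested probe differed from the brightest by more than 0.5 for 5 genes, which are Map4, Fign, Kif2a, Kif1b and Dst. In all 5 the disagreeing probe had the lower fold change, and it was dimmer than the brightest by definition. When dim probes were let in, fold changes over all named genes also leaned negative, with a median of -0.10. Both knockout arrays then lay below both WT arrays for 23.0% of all named genes and above them for 12.9%. The part of signal level in the disagreement was not tested. The highest and lowest members of the list differ in how much they rest on 1 probe. Map7 and Ckap5 had a second tested probe of the same sign without overlap, and Dctn2 and the gamma-tubulin complex genes had a single probe. The second Map7 probe passed the filter only through the WT arrays, where it was high, so its separation is not independent of that filter.

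The wider set of other microtubule genes, a fixed list of 75 with 62 tested, had a median log2 fold change of 0.05, with 33 positive and 29 negative. Both knockout arrays lay above both WT arrays for 13 (21.0%, against 17.7% of all named genes) and below them for 10 (16.1%, against 17.8%). At an unadjusted p under 0.05 there was 1 (1.61%, against 3.54%). That gene was Klc3, a further kinesin light chain, at 0.88 and 0.25 on the knockout arrays, against 1.58 and 1.84 on the WT arrays (-1.15 ± 0.31, SE, limma adjusted p = 0.935). Kif21b, the kinesin with the next largest fold change (0.98 ± 0.92), read 0.05 and 2.91 on the knockout arrays, against 0.49 and 0.50 on the WT arrays, so it was high on knockout 2, the array with the high T cell markers. Among other MAPs, Dclk1, a doublecortin relative, had 0.83 ± 0.37, and Camsap3, which anchors minus ends in epithelia, had -0.69 ± 0.36. Among plus-end and severing genes, Katnal2 had 0.78 ± 0.35 and Clip4 -0.44 ± 0.32. The tubulin acetyltransferase gene Atat1 had -0.58 ± 0.40 and the cofactor gene Tbcd 0.41 ± 0.25. Among dynein and dynactin genes, Dctn6 had -0.43 ± 0.31 and the adaptor gene Bicd2 0.37 ± 0.29. None passed adjustment.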

How the data were processed

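The authors deposited scanner files of spot intensity from 4 one-colour Agilent arrays, 2 STM KO and 2 WT. Per the file headers, Agilent Feature Extraction 11.5.1.1 made them (10.7.3.1 per the submitters' processing notes), with all arrays in 1 scan, and background subtracted within each array. The authors also deposited a log2 table, ascribed to GeneSpring in the design text with its steps unstated. It matched quantile-normalized log2 signals centred on each probe's median (Pearson r at least 0.99999 across probes), which settles its scale, centring and sign. Column medians in that table were 0.00604 and -0.00977 for the knockout arrays, and -0.0178 and 0.0184 for the WT arrays.

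Processed signals were taken to log2 minus each array's 75th percentile (292 and 160 on the knockout arrays, 191 and 144 on the WT arrays). Control spots and 35 to 73 spots per array with outlier flags were left out. A probe was tested when well above background on both arrays of a group (24187 probes, of which 4 lacked a value on an array). Of 41174 probes, 27816 were named through RefSeq (GRCm38.p6, names only), and 13358 were not. The knockout and WT arrays were fitted in R 4.3.3 by limma 3.58.1 (lmFit and eBayes, no covariate, Benjamini-Hochberg over all tested probes). The procedure was also run on simulated data with independent noise for each probe, which does not cover differences shared across an array. No spot was saturated. Signal over background limits dim probes, and no counting error applies.

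The members and gene lists were chosen with earlier results of these data known. Values on every array are given for the 10 members with the largest non-overlapping fold changes, the 6 with the widest range, the 5 brightest, those with probes disagreeing by over 0.5 and those not well above background. Up to 2 genes are named per sub-list of other microtubule genes, and Tubgcp5 and Mzt1 in the gamma-tubulin plot were named after their values were seen. Alternatives covered scaling, background correction, the dim-probe filter, the choice of probe, the replicate block and leaving out each array.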

Additional observations from a re-analysis of the deposited data

How the results depend on the processing

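The results were recomputed under 12 alternatives, of which 1, normexp on the median spot signal, was chosen after seeing the files. The planned version on the mean spot signal was not run, because the files give the median signal. Counts of members above or below WT under each alternative, the gamma-tubulin complex median and the milk list without Glycam1 were also added after seeing the data. No fold change of a member passed an adjusted p of 0.05 under any of them. The count of all named genes past that threshold stayed at 0 except under median scaling, where 3 were lower. Median scaling also brought the members' median to 0.12 (all genes 0.19), the members below both WT arrays to 2 (7.07% of all named genes) and those with an unadjusted p under 0.05 to 1 (3.24%). Normexp gave a median of -0.020, 7 members below (14.9% of all named genes) and 1 with an unadjusted p under 0.05 (3.60%), and leaving out the dim-probe filter also gave 1 (2.94%). The cause was not tested. With 1 array left out, which assumes that the lone array varies like the others, the members' median ran from -0.15 to -0.032. Members with an unadjusted p under 0.05 numbered 1 to 3 (2.61% to 7.94% of all named genes), members above WT 11 to 15 (31.1% to 35.4%) and members below 16 to 21 (32.4% to 38.0%), since a lone array overlaps less often. The gamma-tubulin complex median ran from 0.22 to 0.54. The labels number the arrays 1 and 2 in each group without saying that a number links samples, and the deviations of replicate 1 from its group mean correlated at 0.06 between the groups across probes. With the replicate block, 2 members had an unadjusted p under 0.05 and the members' median was -0.07, both as without it, and 0 named genes passed adjustment. Of 344 member fold changes under settings that keep every array, 29 changed sign. Under median scaling these were Mapre1 (0.12), Clip1 (0.059), Clip2 (0.14), Katna1 (0.074), Spast (0.12), Kif3c (0.12), Kif5c (0.19), Kifap3 (0.020), Klc1 (0.038), Dynll2 (0.11), Dync1h1 (0.082), Hdac6 (0.11) and Dst (0.13). With normexp they were Mapre1 (0.098), Katna1 (0.090), Fign (-0.14), Kif3b (-0.030), Kif5c (0.084), Klc2 (-0.081), Dynll2 (0.14), Dync1h1 (0.030) and Macf1 (-0.00054), and with the mean over probes Map4 (-0.15), Mapre2 (-0.059), Fign (-0.16), Dynll1 (-0.070) and Dynll2 (0.030). Kif5c also did so under quantile normalization (0.0014) and in the deposited log2 table (0.0015). With 1 array left out, 19 members changed sign, with these ranges: Clasp2 (-0.31 to 0.42), Clip2 (-0.49 to 0.38), Dctn2 (-2.26 to 0.13), Dync1li1 (-0.066 to 0.21), Dynll1 (-0.085 to 0.27), Dynll2 (-0.28 to 0.11), Fign (-0.33 to 0.57), Hdac6 (-0.22 to 0.046), Kif3b (-0.16 to 0.34), Kif3c (-0.20 to 0.059), Kif5c (-0.61 to 0.61), Klc1 (-0.35 to 0.034), Klc2 (-0.079 to 0.44), Map1b (-0.17 to 0.28), Map4 (-0.12 to 0.30), Mapre1 (-0.20 to 0.043), Mapre2 (-0.10 to 0.16), Mapt (-0.75 to 0.13) and Spast (-0.16 to 0.0061). Dim probes near background, such as those of Ckap5, Map2 and Klc2, limit what the arrays show.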
